A study of Homo sapiens with 6 samples.

Results

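The integrins and the proteins that tie them to the actin cytoskeleton were examined in RNA-seq of BT549, an established breast cancer line of mesenchymal character, after knockdown of basonuclin-2 (BNC2). The genes were taken by symbol: all 18 integrin α genes, all 8 integrin β genes, and 18 genes for focal adhesion proteins and collagen-binding receptor kinases, which makes 44 of the 23346 genes in the deposited table. All 44 have a row. Wild-type BT549 cells received 20 nM of either negative control (NC) siRNA or BNC2 siRNA, an equal mix of 3 siRNAs, and poly(A) RNA was prepared 6 d later from 3 biological replicates of each. Both groups were therefore transfected, and the comparison is between siRNAs in 1 cell line. The question it addresses is which genes depend on BNC2, a zinc finger protein thought to act in transcription.

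The siRNAs are shown because they are what set the groups apart. Each sense strand is given 5′ to 3′ with its core in capitals and the overhang in lower case.
BNC2 siRNA (1): GACUUGUGAUCAGUGUAAAtt
BNC2 siRNA (2): GGAAGACAUUCUAUGACAAtt
BNC2 siRNA (3): CCUCUGUACGAAGCCGAAAtt
NC siRNA: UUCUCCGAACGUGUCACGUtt
The 19 bases in capitals of each BNC2 siRNA occur in GENCODE transcripts of 1 gene, BNC2. Those of the NC siRNA occur in none, and no transcript of the 44 genes holds any of the 4 sequences in full. Partial matches were not searched.

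Integrins are receptors for the extracellular matrix, each made of 1 α and 1 β subunit, and the α subunit largely sets which ligand is bound. Inside the cell, talin and kindlin bind the β tail and activate the receptor, while vinculin, the complex of ILK, PINCH and parvin, and the tensins and zyxin join it to actin. Focal adhesion kinase (FAK), paxillin and p130Cas carry the signal onwards. The discoidin domain receptors DDR1 and DDR2 are receptor tyrosine kinases that bind collagen without being integrins. In mesenchymal cells β1 integrins with α5, αV or a collagen-binding α are known as main routes of attachment to fibronectin and collagen.

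The libraries held 16093978 to 18246254 counts on genes, and BNC2 itself fell to 64.6% of the control level (log2 fold change -0.63 with a standard error, SE, of 0.09; adjusted p = 8.2e-06 by edgeR's quasi-likelihood test), with no overlap between groups. The mesenchymal markers VIM, CDH2, ZEB1, SNAI2 and TWIST1 summed to 3339 to 3437 CPM (counts scaled by library size with TMM factors) with NC siRNA and 4011 to 4238 CPM with BNC2 siRNA. VIM made up most of the sum and rose 1.13-fold. All 5 were called up, with rises of 1.27-fold for ZEB1, 2.21-fold for SNAI2, 2.57-fold for CDH2 and 2.91-fold for TWIST1, so they moved with most of the integrin genes. The part of these 5 markers in the results below was not tested. ZEB2, which the study found lowered by qRT-PCR after knockdown, was not among them. The study reported no consistent trend over its wider set of epithelial and mesenchymal genes. The 5 epithelial markers summed to at most 0.451 CPM in any library, with EPCAM and ESRP1 at 0 counts in all 6. Endothelial markers summed to at most 0.672 CPM, with CDH5 at 0 in all 6 libraries. In bulk RNA of this kind, fewer cells expressing a gene and less RNA per cell cannot be told apart.

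BNC2 knockdown raised most of the integrin genes that BT549 cells express and lowered the most abundant one, ITGB1. Of the 44 genes, 27 had more than 1 CPM in at least 3 libraries and were tested, 17 were up-regulated, 8 were down-regulated, and FERMT2 and PARVA were not called. Calls required an adjusted p (Benjamini-Hochberg, over all 12186 genes tested) of no more than 0.05 in edgeR's quasi-likelihood test. Of those, 72.9% were called, 36.6% upwards and 36.2% downwards, so a call in itself says little. The 25 genes called here make up 92.6% of the 27. Of the 27, 26 had a mean of at least 10 CPM, of which 24 were called, beside 75.3% of the 9143 genes tested at such levels. Because genes had to pass a filter on low values, these counts describe the genes expressed here and not the whole family.

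Their median log2 fold change was 0.35, against 0.00 for all genes tested, and the single genes ranged from -1.16 (DDR1) to 1.15 (ITGAM), or to 1.11 (PTK2) with ITGAM set aside, which passed the filter only through its BNC2 siRNA libraries. Of the 11 integrins tested, ITGAM included, 9 rose and 2 fell, with a median of 0.73. Without the filter on low counts, ITGA2, ITGA7, ITGA2B and ITGB7 were also called down, as was TNS1, and the median over the members with a count fell to 0.064. That fit called 9662 of all 18121 genes tested. Of the 16 other genes tested, 8 rose, 6 fell and 2 were not called, with a median of 0.15. In 25 of the 27 genes the libraries of the groups did not overlap, as was the case in 74.9% of all genes tested. Of the genes called, 4 changed at least 2-fold, ITGA6, PTK2, DDR1 and the low ITGAM, where 18.1% of all genes tested did. The changes were thus mostly below 2-fold in size and larger than the spread between replicates.

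**Figure D1:**
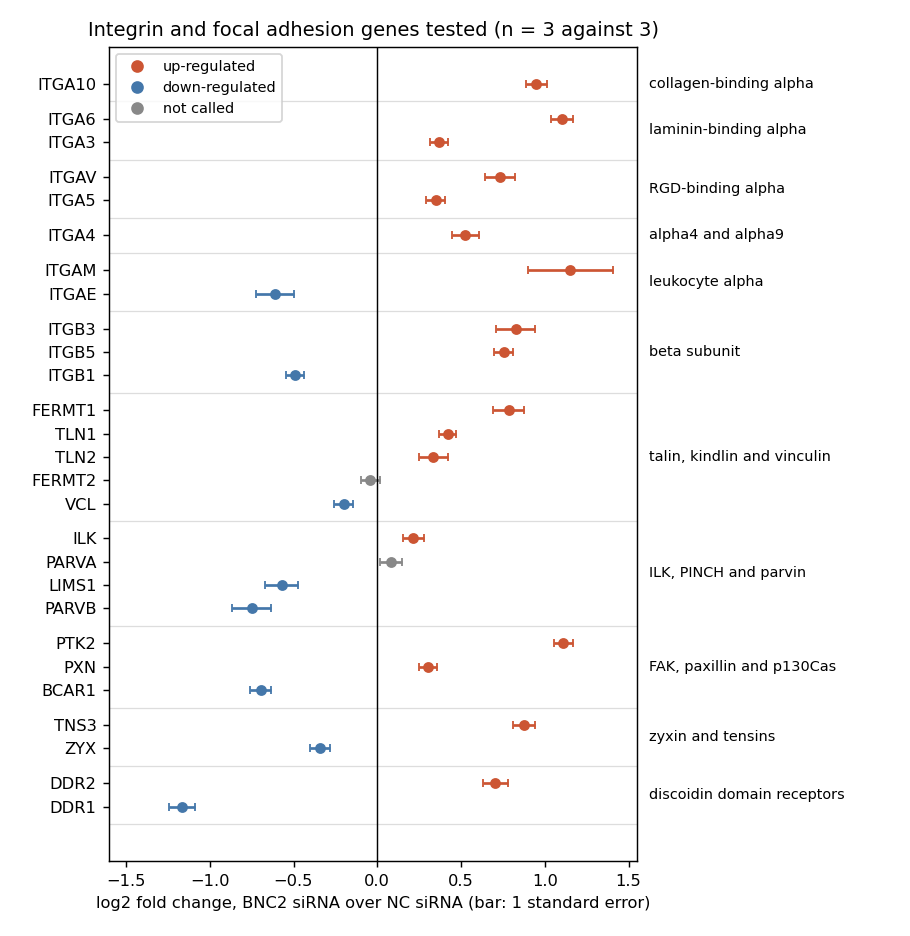
Log2 fold change of BNC2 siRNA over NC siRNA (horizontal axis) for the 27 genes tested, grouped by role, with 1 standard error as the bar and n = 3 libraries a group. The 11 integrins lie to the right of 0 except ITGAE and ITGB1, and the other groups hold genes on both sides.

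Both laminin-binding α genes that were tested were up-regulated. ITGA6, on chromosome 2 of GRCh37 from 173292082 to 173371187, encodes α6, which binds laminin together with β1 or β4, and had 291, 257 and 249.5 CPM with NC siRNA and 526, 588 and 599 CPM with BNC2 siRNA. Every BNC2 siRNA library lay above every NC siRNA library, by 2.15-fold on average (log2 fold change 1.10 ± 0.07 SE, adjusted p = 3.5e-10). ITGA3, on chromosome 17 of GRCh37 from 48133332 to 48167845, encodes the α3 subunit of a laminin-332 receptor and had 648, 689.6 and 636 CPM with NC siRNA and 865, 837 and 849.7 CPM with BNC2 siRNA. Its rise of 1.29-fold was smaller (log2 fold change 0.37 ± 0.05 SE, adjusted p = 1.1e-05) but again without overlap. ITGA7, the third gene of this kind and best known from muscle, did not pass the filter, at 17, 31 and 29 counts with NC siRNA and 5, 4 and 5 with BNC2 siRNA. Its summed count was 5.33 times higher with NC siRNA (95% exact interval for counting error 2.99 to 10.2), so this low gene stood on the other side.

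Of the 4 α subunits that bind collagen, only ITGA10 passed the filter on low counts. ITGA10, on chromosome 1 of GRCh37 from 145524969 to 145543868, encodes α10, known from cartilage, and had 54.4, 53.8 and 51.5 CPM with NC siRNA and 97.0, 104 and 108 CPM with BNC2 siRNA. It rose 1.93-fold (log2 fold change 0.95 ± 0.06 SE, adjusted p = 1.1e-09), and the groups were far apart. The genes for α1, α2 and α11 were low: ITGA1 had at most 4 counts in a library and ITGA11 at most 2. ITGA2 had 24, 16 and 24 counts with NC siRNA and 2, 9 and 3 with BNC2 siRNA, 4.43 times more with NC siRNA in sum (95% exact interval for counting error 2.46 to 8.55).

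Both tested α genes whose products recognise the RGD sequence of fibronectin and vitronectin rose as well, as did ITGA4. ITGAV, on chromosome 2 of GRCh37 from 187454737 to 187545628, encodes αV, which pairs with 5 of the β subunits listed here, β1, β3, β5, β6 and β8, and had 216, 184 and 165 CPM with NC siRNA and 286, 299 and 354 CPM with BNC2 siRNA. Its replicates were spread, and the groups still did not overlap (1.66-fold, log2 fold change 0.73 ± 0.09 SE, adjusted p = 1.5e-06). ITGA5, on chromosome 12 of GRCh37 from 54789045 to 54813050, encodes the α5 subunit of the main fibronectin receptor and had 234, 242 and 223 CPM with NC siRNA and 312, 293 and 285 CPM with BNC2 siRNA. It rose by less, 1.27-fold (log2 fold change 0.35 ± 0.06 SE, adjusted p = 3.9e-05). ITGA4, whose product binds fibronectin and VCAM1, had 98.4, 81.0 and 84.0 CPM with NC siRNA and 116, 128 and 136 CPM with BNC2 siRNA. All 3 of its BNC2 siRNA libraries lay above the controls (1.44-fold, log2 fold change 0.53 ± 0.08 SE, adjusted p = 1.3e-05). ITGA8 had no count in any library (3 counts over a group would be 0.0574 and 0.0592 CPM), ITGA9 at most 4 counts, and the platelet subunit ITGA2B at most 8.

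Among the 5 α subunits best known from leukocytes, 2 were tested and went opposite ways. ITGAE, which encodes the αE subunit that binds E-cadherin with β7, had 12.8, 14.5 and 13.6 CPM with NC siRNA and 8.03, 9.08 and 9.68 CPM with BNC2 siRNA, and fell without overlap (log2 fold change -0.61 ± 0.11 SE, adjusted p = 1.4e-04). ITGAM, which encodes αM, had 19, 16 and 15 counts with NC siRNA and 36, 34 and 38 with BNC2 siRNA. Its rise (log2 fold change 1.15 ± 0.25 SE, adjusted p = 6.5e-04) had to accompany its passing the filter, since only its BNC2 siRNA libraries were all above 1 CPM. The 8 leukocyte and platelet markers summed to 2.18 to 2.87 CPM with NC siRNA and 1.02 to 1.22 CPM with BNC2 siRNA, with GP9 and PF4 at 0 counts in each library. Most of that sum was CD14, at 1.70 and 0.635 CPM on average, while PTPRC, the marker shared by leukocytes, had 3, 2 and 6 counts with NC siRNA and 3, 7 and 5 with BNC2 siRNA. The part of such cells in the values of ITGAM was not tested. ITGAD, ITGAL and ITGAX had at most 3 counts in any library.

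The β subunits shifted away from β1. ITGB1, on chromosome 10 of GRCh37 from 33176201 to 33294720, encodes the shared partner of most matrix-binding α subunits, and had 1605, 1614 and 1565 CPM with NC siRNA and 1117, 1107 and 1181 CPM with BNC2 siRNA. Each BNC2 siRNA library was below each control, at 71.2% of the control level (log2 fold change -0.49 ± 0.05 SE, adjusted p = 3.6e-07). ITGB5 and ITGB3, which pair with αV to bind vitronectin, rose. ITGB5, on chromosome 3 of GRCh37 from 124480795 to 124620265, had 132, 140.4 and 127 CPM with NC siRNA and 231, 224 and 217 CPM with BNC2 siRNA (1.69-fold, log2 fold change 0.75 ± 0.06 SE, adjusted p = 5.7e-09). ITGB3 was lower and had 20.7, 14.5 and 15.4 CPM with NC siRNA and 30.1, 32.3 and 27.1 CPM with BNC2 siRNA (1.77-fold, log2 fold change 0.83 ± 0.12 SE, adjusted p = 8.3e-06). Both genes were higher in every BNC2 siRNA library than in any control.

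The other 5 β genes were not tested. ITGB7, the partner of αE and α4 on lymphocytes, had 5, 7 and 4 counts with NC siRNA and 0 with BNC2 siRNA. Its control level was 5.17 times a limit of 3 counts over the BNC2 siRNA group. That ratio leaves out the counting error of the controls. The leukocyte subunit ITGB2 had 1, 4 and 7 counts with NC siRNA and 8, 8 and 6 with BNC2 siRNA, and the groups overlapped. ITGB4, the hemidesmosome partner of α6, had at most 7 counts in a library, and ITGB6 at most 3. ITGB8 had none. BT549 cells therefore expressed α6 mRNA with hardly any β4 mRNA at this depth.

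**Figure D2:**
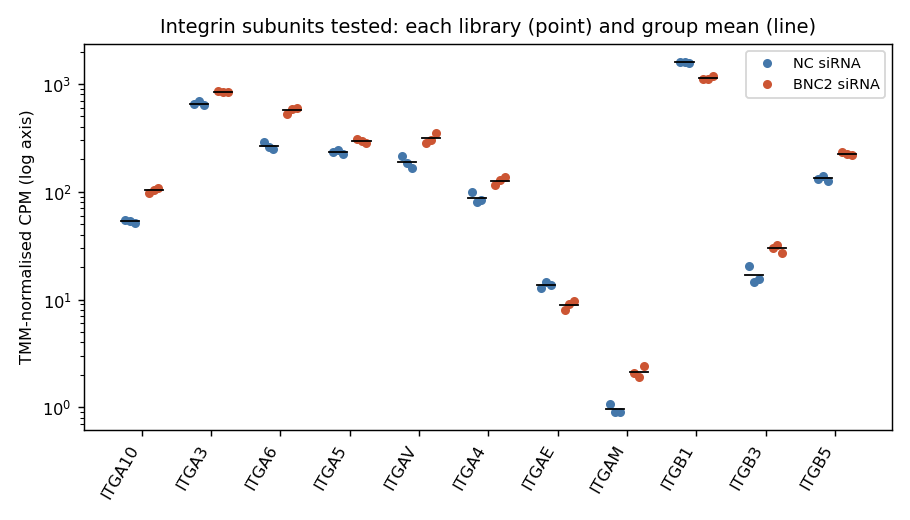
TMM-normalised CPM (log axis) of the 11 integrin genes tested, with 1 point a library and a line at the group mean. Blue (NC siRNA) and orange (BNC2 siRNA) points do not overlap in any of the 11, and ITGAE and ITGB1 are those in which orange lies below.

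To set subunits beside each other, CPM was divided by the length of the canonical GENCODE transcript, in CPM per kb. On this scale ITGB1 was the highest of all 44 genes in both groups, at 427 ± 6.97 CPM per kb (SD, n = 3) with NC siRNA and 304 ± 10.8 (SD, n = 3) with BNC2 siRNA. It made up 92.8% ± 0.194 (SD, n = 3) of the summed β level in controls and 84.5% ± 0.876 (SD, n = 3) after knockdown, while the share of ITGB5 went from 6.51% ± 0.237 to 14.1% ± 0.732. The order of the β genes, ITGB1, ITGB5 and then ITGB3, was the same in both groups, and neighbours in it were further apart than their replicates.

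Among the α genes ITGA3 led, with 46.5% ± 1.71 (SD, n = 3) of the summed α level in controls and 40.7% ± 1.31 after knockdown. ITGA6 moved from the third to the second place, from 15.8% ± 0.938 to 22.9% ± 1.22, and ITGA5 from the second to the third, from 18.9% ± 0.408 to 16.3% ± 1.09. ITGAV kept the fourth place, with 9.23% ± 0.965 and 10.4% ± 0.960. In controls ITGA4 (4.47% ± 0.418) was above ITGA10 (3.59% ± 0.0480) in each library, and after knockdown ITGA10 (4.68% ± 0.160) was above ITGA4 (4.36% ± 0.267) in each, although the ranges over libraries then overlapped.

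The summed α level rose from 289.6 ± 11.9 to 428 ± 9.54 CPM per kb (SD, n = 3 each), and the summed β level fell from 460.1 ± 8.44 to 359.6 ± 9.14. The 6 well expressed α genes that can pair with β1 (ITGA3, ITGA4, ITGA5, ITGA6, ITGAV and ITGA10) summed to 0.682, 0.673 and 0.647 times ITGB1 in the controls. After knockdown they summed to 1.40, 1.43 and 1.38 times ITGB1. The ratio was thus below 1 in each control and above 1 in each BNC2 siRNA library. For each of these 3 quantities the exact permutation test (two-sided) gave p = 0.1, the smallest value that 3 libraries against 3 allow. The 6 α genes each rose and ITGB1 fell without overlap, so their ratio had to separate the groups and its p-value adds no support. These are ratios of mRNA, and transcript lengths were taken from 1 isoform a gene.

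**Figure D3:**
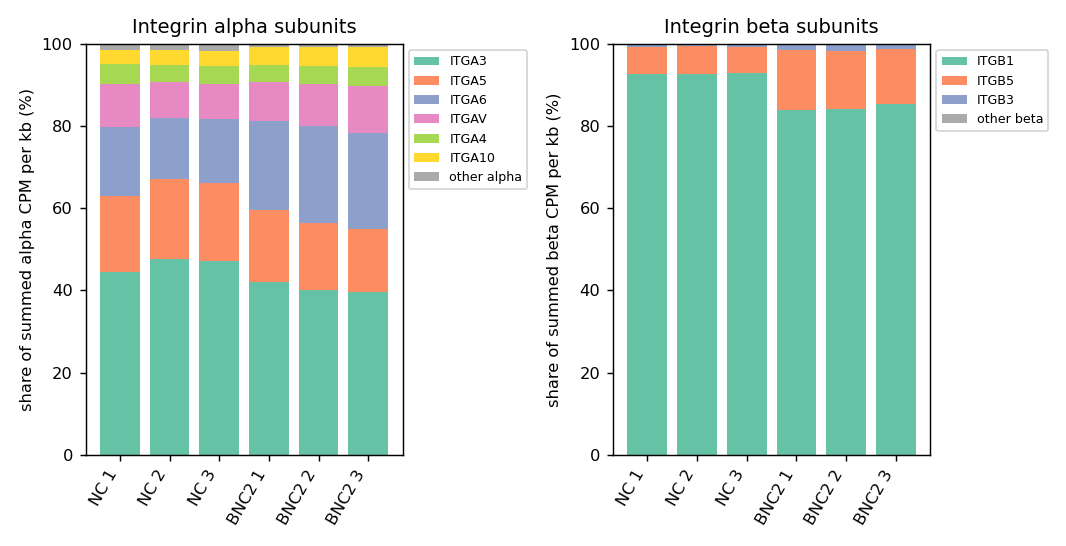
Share of each integrin gene in the summed CPM per kb (percent, vertical axis) of α genes (left) and β genes (right) in each of the 6 libraries. In the BNC2 siRNA libraries ITGA6 and ITGB5 take a larger share and ITGA3, ITGA5 and ITGB1 a smaller one than in the NC siRNA libraries.

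Among the talin, kindlin and vinculin genes, TLN1, TLN2 and FERMT1 rose, VCL fell and FERMT2 was not called. TLN1, on chromosome 9 of GRCh37 from 35696945 to 35732192, encodes talin-1, which links the β tail to actin, and had 455, 453 and 454 CPM with NC siRNA and 610.3, 594 and 619 CPM with BNC2 siRNA. Its replicates were close, and it rose 1.34-fold (log2 fold change 0.42 ± 0.05 SE, adjusted p = 1.4e-06). TLN2 was about as much changed from a lower level, 25.2 ± 1.24 to 31.8 ± 2.84 CPM (SD, n = 3 each; log2 fold change 0.34 ± 0.09 SE, adjusted p = 0.00228). FERMT2, the kindlin of mesenchymal cells, had 299.9, 276 and 278 CPM with NC siRNA and 269, 281 and 280.1 CPM with BNC2 siRNA. Its groups overlapped, and the difference did not pass the test (log2 fold change -0.04 ± 0.06 SE, adjusted p = 0.520).

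FERMT1, the kindlin best known from epithelium, had 32.5, 25.3 and 25.3 CPM with NC siRNA and 46.5, 50.5 and 46.4 CPM with BNC2 siRNA and rose 1.72-fold (log2 fold change 0.78 ± 0.09 SE, adjusted p = 1.0e-06). Per kb of transcript FERMT2 stood at 14.6 ± 1.39 (SD, n = 3) times FERMT1 in controls and 8.18 ± 0.344 times after knockdown, so FERMT2 was the higher kindlin throughout. FERMT3, the kindlin of blood cells, was not tested, with 5, 5 and 6 counts with NC siRNA and 10, 11 and 10 with BNC2 siRNA. VCL, on chromosome 10 of GRCh37 from 75754951 to 75881121, encodes vinculin, which joins talin to actin under tension, and had 717, 673 and 636 CPM with NC siRNA and 571, 587 and 604 CPM with BNC2 siRNA. It was lower in every BNC2 siRNA library by a small amount (log2 fold change -0.20 ± 0.06 SE, adjusted p = 0.00493).

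The complex of ILK, PINCH and parvin did not move as 1 unit. ILK, a pseudokinase that binds the β1 tail, rose from 73.8 ± 3.41 to 85.7 ± 3.06 CPM (SD, n = 3 each; log2 fold change 0.21 ± 0.06 SE, adjusted p = 0.00548). With libraries scaled by total counts only, its log2 fold change was 0.14 and it was not called (adjusted p = 0.0606 by the same test). PARVA had 62.9 ± 3.16 and 66.5 ± 2.04 CPM with overlapping groups (log2 fold change 0.08 ± 0.06 SE, adjusted p = 0.270). PARVB, the other parvin tested, fell from 19.4 ± 2.86 to 11.5 ± 0.842 CPM without overlap (log2 fold change -0.75 ± 0.12 SE, adjusted p = 2.2e-05). LIMS1, which encodes PINCH1, had 53.7, 47.3 and 42.1 CPM with NC siRNA and 28.4, 32.1 and 36.0 CPM with BNC2 siRNA. It fell by 0.57 on the log2 scale (SE 0.10, adjusted p = 5.8e-05). LIMS1 has near-identical copies in the genome, and reads mapping to more than 1 place were not counted, so its level is uncertain.

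The signalling genes split. PTK2, on chromosome 8 of GRCh37 from 141667999 to 142012315, encodes FAK, the kinase recruited to clustered integrins, and had 206, 187 and 189.8 CPM with NC siRNA and 418, 416 and 423 CPM with BNC2 siRNA. It rose 2.16-fold (log2 fold change 1.11 ± 0.06 SE, adjusted p = 2.9e-11), among the largest changes of these genes. PXN, on chromosome 12 of GRCh37 from 120648242 to 120703574, encodes the scaffold paxillin and had 211, 205 and 204 CPM with NC siRNA and 255, 261 and 249.6 CPM with BNC2 siRNA. Its rise was 1.23-fold (log2 fold change 0.30 ± 0.05 SE, adjusted p = 7.1e-05). BCAR1, on chromosome 16 of GRCh37 from 75262079 to 75301951, encodes p130Cas, a docking protein phosphorylated downstream of FAK, and fell. It had 298, 324 and 298 CPM with NC siRNA and 203, 175 and 189 CPM with BNC2 siRNA, or 61.7% of the control level (log2 fold change -0.70 ± 0.06 SE, adjusted p = 4.2e-08). Per kb of transcript, PTK2 was 0.549, 0.459 and 0.506 times BCAR1 in the controls and 1.64, 1.89 and 1.78 times in the BNC2 siRNA libraries.

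ZYX and the tensins, which sit where adhesions meet actin bundles, also differed in direction. ZYX, on chromosome 7 of GRCh37 from 143078388 to 143088204, encodes zyxin and had 223, 236 and 243 CPM with NC siRNA and 199, 181 and 174 CPM with BNC2 siRNA, a fall of 0.34 on the log2 scale (SE 0.06, adjusted p = 1.0e-04). TNS3, on chromosome 7 of GRCh37 from 47314752 to 47622156, encodes tensin-3 and had 101, 88.1 and 87.5 CPM with NC siRNA and 168, 168 and 172 CPM with BNC2 siRNA. It rose 1.83-fold (log2 fold change 0.87 ± 0.06 SE, adjusted p = 3.3e-09). TNS1, which encodes tensin-1 of fibrillar adhesions, did not pass the filter and had 24, 17 and 13 counts with NC siRNA and 1, 0 and 2 with BNC2 siRNA. In sum this was 17.4 times more with NC siRNA, with a wide 95% exact interval for counting error (5.66 to 87.2).

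**Figure D4:**
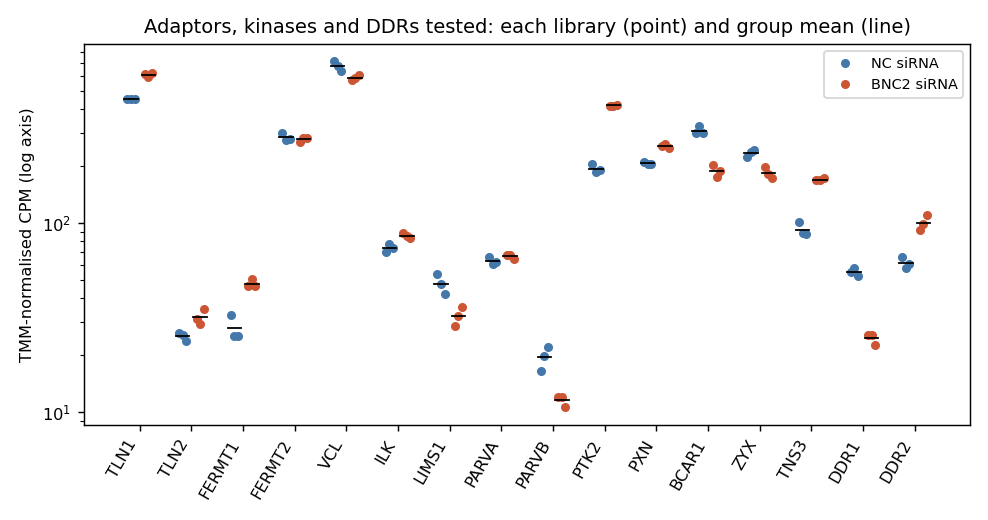
TMM-normalised CPM (log axis) of the 16 adaptor, kinase and DDR genes tested, with 1 point a library and a line at the group mean. The groups overlap in FERMT2 and PARVA, PTK2 and TNS3 lie clearly higher with BNC2 siRNA, and DDR1, PARVB and BCAR1 lower.

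The 2 discoidin domain receptors went in opposite directions. DDR1, on chromosome 6 of GRCh37 from 30844198 to 30867933, is known mainly from epithelial cells and had 54.8, 57.7 and 52.5 CPM with NC siRNA and 25.4, 25.6 and 22.5 CPM with BNC2 siRNA. It was down-regulated 2.24-fold (log2 fold change -1.16 ± 0.08 SE, adjusted p = 9.1e-10), the largest fall among the genes tested here. DDR2, on chromosome 1 of GRCh37 from 162601163 to 162757195, is known mainly from mesenchymal cells and binds fibrillar collagens, and had 66.4, 57.5 and 60.3 CPM with NC siRNA and 92.3, 98.4 and 109.6 CPM with BNC2 siRNA. It rose 1.63-fold (log2 fold change 0.70 ± 0.07 SE, adjusted p = 2.7e-07). Per kb of transcript DDR2 was 0.461, 0.379 and 0.437 times DDR1 in the controls and 1.38, 1.46 and 1.85 times after knockdown. On this scale the higher of the pair was therefore DDR1 in each NC siRNA library and DDR2 in each BNC2 siRNA library. The order in controls rests on the transcript lengths used, 3.836 kb for DDR1 and 10.086 kb for DDR2. In CPM, DDR2 was already the higher by control means, at 61.4 beside 55.0 for DDR1. The exact permutation test on the ratio gave p = 0.1, the smallest that 3 against 3 can give. As DDR2 rose and DDR1 fell without overlap, the ratio had to separate the groups, so this p-value adds no support.

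**Figure D5:**
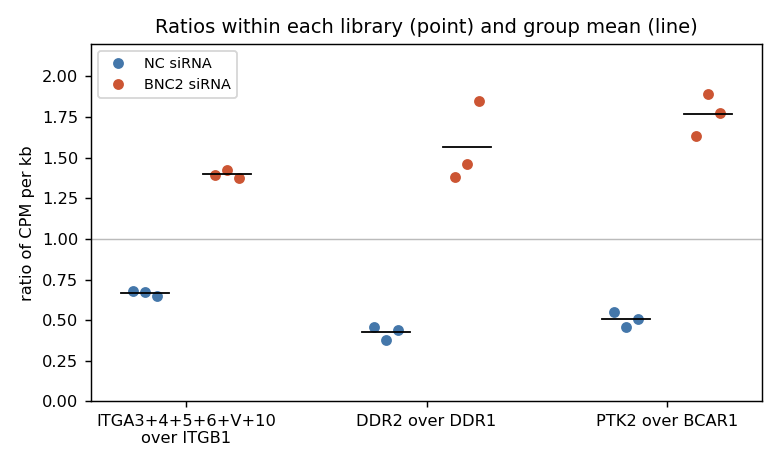
Ratios of CPM per kb within each library (vertical axis, no unit), with 1 point a library and a line at the group mean. For the 6 α genes over ITGB1, DDR2 over DDR1 and PTK2 over BCAR1, the NC siRNA libraries lie below 1 and the BNC2 siRNA libraries above 1.

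The promoters of this pair are shown because their genes moved in opposite directions. They are taken from RefSeq, span 250 bases before to 50 bases after the gene start, and carry coordinates of GRCh38.p14, another build than the GRCh37 positions above. Capitals mark matches on either strand to GGGCGG (GC box), TGANTCA (AP-1) or CATTCC (TEAD), and matches were allowed to overlap.
DDR1, GRCh38.p14 chr6:30880720-30881019, plus strand: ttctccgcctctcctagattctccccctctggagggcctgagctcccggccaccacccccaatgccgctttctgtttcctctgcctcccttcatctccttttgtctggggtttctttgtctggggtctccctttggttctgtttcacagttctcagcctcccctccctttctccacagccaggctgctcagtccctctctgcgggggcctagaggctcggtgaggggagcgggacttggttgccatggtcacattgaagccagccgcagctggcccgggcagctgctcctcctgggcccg
DDR2, GRCh38.p14 chr1:162630613-162630912, plus strand: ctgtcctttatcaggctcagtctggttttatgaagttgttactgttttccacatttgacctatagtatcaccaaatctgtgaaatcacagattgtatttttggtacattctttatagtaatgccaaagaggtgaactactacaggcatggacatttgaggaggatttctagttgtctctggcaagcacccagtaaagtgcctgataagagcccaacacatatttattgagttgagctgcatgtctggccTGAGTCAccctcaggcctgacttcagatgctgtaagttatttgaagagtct
DDR1 held none of the 3 motifs, and DDR2 held 1, an AP-1 match. The GC content was 62.3% for DDR1 and 41.0% for DDR2, beside a median of 58.3% over 27305 promoters of the same length. A promoter was matched for 32 of the 44 genes, and the median GC content of these was 69.3%, higher than that of all promoters. The GC box was present in 18 of these 32 (56.2%) and in 44.6% of all promoters, a share not adjusted for GC content, the AP-1 motif in 3 (9.38%) and 7.76%, and the TEAD motif in 4 (12.5%) and 14.0%. Of the genes with a promoter, 13 were up-regulated and 8 down-regulated, and 7 and 5 of them held a GC box, 2 and 1 an AP-1 match, and 2 and 2 a TEAD match. A match describes letters and not a binding site.

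Beyond these genes, 58 other focal adhesion genes were listed, of which 50 were tested, 21 rose and 21 fell, with a median log2 fold change of 0.03 (levels are means ± SD, n = 3). These counts and those of the lists below are to be read against the 72.9% of all genes tested that were called, 36.6% upwards and 36.2% downwards. Among genes reaching a mean of 5 CPM in the higher group, the largest falls were those of FYN, a Src-family kinase (18.2 ± 0.749 to 2.22 ± 0.475 CPM, log2 fold change -3.02 ± 0.15 SE, adjusted p = 1.6e-11), LPXN, which encodes the paxillin relative leupaxin (14.4 ± 0.591 to 2.03 ± 0.309 CPM, log2 fold change -2.83 ± 0.15 SE, adjusted p = 4.1e-11), and CSRP1, a LIM protein of actin bundles (187 ± 3.67 to 51.3 ± 4.69 CPM, log2 fold change -1.86 ± 0.07 SE, adjusted p = 6.7e-13). The largest rises were those of FHL2 (1.20 ± 0.424 to 5.05 ± 1.02 CPM, log2 fold change 2.08 ± 0.25 SE, adjusted p = 1.2e-06), DOCK1, a Rac activator that p130Cas recruits through CRK (36.9 ± 0.817 to 115 ± 1.39 CPM, log2 fold change 1.64 ± 0.06 SE, adjusted p = 8.7e-13), and LPP, a relative of zyxin (67.4 ± 3.64 to 146 ± 8.74 CPM, log2 fold change 1.12 ± 0.07 SE, adjusted p = 1.8e-10). FHL2 passed the filter and reached 5 CPM only through its BNC2 siRNA libraries, so that its rise and its rank follow in part from that choice. SRC itself fell by 0.23 on the log2 scale (adjusted p = 0.00415), and the abundant actin crosslinkers ACTN1 and ACTN4 fell by 0.39 and 0.66, with adjusted p-values of 3.4e-06 and 1.9e-08. These 3 were chosen after their values were seen.

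A list of 17 membrane proteins was also examined, most of which are known to associate with integrins. All were tested, 4 rose and 8 fell, with a median of -0.20, so that the share called was close to the 72.9% of all genes tested. The tetraspanin CD9 fell most, from 184 ± 22.7 to 28.6 ± 1.59 CPM (log2 fold change -2.69 ± 0.09 SE, adjusted p = 1.4e-13), followed by the proteoglycan SDC4, a co-receptor for fibronectin (102 ± 4.07 to 37.8 ± 1.26 CPM, log2 fold change -1.43 ± 0.06 SE, adjusted p = 8.4e-12), and the urokinase receptor PLAUR (337 ± 4.06 to 139 ± 6.67 CPM, log2 fold change -1.27 ± 0.06 SE, adjusted p = 5.9e-12). By the same rule, MDGA1 (2.92 ± 0.840 to 9.64 ± 0.299 CPM, log2 fold change 1.72 ± 0.17 SE, adjusted p = 1.2e-07), SDC1 (54.8 ± 2.56 to 108 ± 7.66 CPM, log2 fold change 0.98 ± 0.07 SE, adjusted p = 1.5e-09) and the caveolin gene CAV1 (594 ± 19.2 to 941 ± 14.5 CPM, log2 fold change 0.66 ± 0.05 SE, adjusted p = 8.4e-09) rose most. MDGA1 is not an established partner of integrins. It reached 5 CPM only through its BNC2 siRNA libraries, so that its rank follows in part from that choice. CD151, the tetraspanin bound to α3 and α6 integrins, had 70.4 ± 5.89 and 70.7 ± 5.58 CPM without passing the test (log2 fold change 0.01 ± 0.08 SE, adjusted p = 0.944), and was chosen after its value was seen.

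Of 23 integrin ligands other than collagens and laminins, 13 were tested, 6 rose and 7 fell, beside 72.9% of all genes tested that were called, with a median of -0.24. TNC, which encodes tenascin-C, a ligand of αV integrins among others, rose from 62.4 ± 4.59 to 741 ± 10.4 CPM (log2 fold change 3.57 ± 0.07 SE, adjusted p = 1.8e-16). EDIL3 (15.0 ± 2.65 to 67.2 ± 6.86 CPM, log2 fold change 2.16 ± 0.11 SE, adjusted p = 2.6e-11) and TGFBI (14.5 ± 0.776 to 63.7 ± 4.71 CPM, log2 fold change 2.13 ± 0.08 SE, adjusted p = 1.4e-12), both with RGD sequences, came next. ICAM1, a ligand of leukocyte integrins, fell most (87.5 ± 2.97 to 18.4 ± 0.0970 CPM, log2 fold change -2.25 ± 0.07 SE, adjusted p = 9.1e-14), followed, among genes reaching 5 CPM, by the abundant THBS1 (3434 ± 252 to 1839 ± 89.1 CPM, log2 fold change -0.90 ± 0.06 SE, adjusted p = 1.7e-09) and MFGE8 (52.8 ± 2.46 to 33.7 ± 2.07 CPM, log2 fold change -0.65 ± 0.07 SE, adjusted p = 6.4e-07). FBLN5 was below that level and fell by 0.95 on the log2 scale (adjusted p = 0.00183), more than THBS1. VTN, which encodes vitronectin, had at most 0.210 CPM on average in either group and was not tested.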

How the data were processed

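The members, lists and tests were chosen with earlier results of these data known. The authors sequenced poly(A) RNA of BT549 cells as single-end reads, aligned it to hg19 with STAR 2.6.1d and deposited raw counts of uniquely mapped reads per gene, which equal STAR's reverse-strand counts in each gene. Reads assigned to no gene (37.7% to 41.1% of a library) were left out. The 6 libraries were grouped by their labels. With edgeR 4.0.16 in R 4.3.3, the 12186 genes exceeding 1 CPM in 3 or more libraries were kept, scaled by TMM and tested by quasi-likelihood without a replicate block, which the methods of the study do not use. This replaced their likelihood ratio test, which was run as an alternative. P-values were adjusted by Benjamini-Hochberg over all genes tested. The standard error is the log2 fold change divided by the square root of F. The quasi-likelihood fit was tested on simulated data. Per-library values and full statistics were given for genes called with an absolute log2 fold change of at least 1 or reaching a mean of 100 CPM in either group. Outside this rule, and with their values seen, the same was given for ITGAE, ITGB3, FERMT1 and LIMS1, and means with statistics for TLN2, ILK, PARVA and PARVB. Of each further list, the rule named the 3 largest rises and falls among genes called without overlap that reached 5 CPM. Intervals cover counting error only. Limits (3 counts) leave out the counting error of the other group and the spread between replicates. Positions and transcript lengths come from GENCODE 44 on GRCh37 (hg19). DESeq2 1.42.0 and other alternatives are given at the end.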

Additional observations from a re-analysis of the deposited data

How the results depend on the processing

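The 27 genes tested gave 378 results under the alternatives, of which 377 kept their side of the threshold. No gene called in the main fit or in the alternative changed direction. A change of sign in a gene called in neither was not counted. The result that crossed the threshold was ILK with total counts only, whose log2 fold change was then 0.14 and which was not called. The numbers of genes up-regulated and down-regulated were 17 and 8 with the likelihood ratio test, with DESeq2, with its size factors, and with the replicate number as a block (replicate block), 17 and 9 from both strands, and 17 and 11 with filterByExpr. The replicate numbers did not pair the libraries: the deviations of libraries with the same number correlated at -0.21, -0.08 and -0.13. Without the filter on low counts 17 were up-regulated and 13 down-regulated, the additional ones being ITGA2, ITGA7, ITGA2B, ITGB7 and TNS1, and the median log2 fold change fell to 0.064, since 41 genes with at least 1 count then entered it. In that fit 9662 of all 18121 genes tested were called. With total counts only the median was 0.27, as the median of all genes fell by 0.08. Leaving out each library in turn gave medians from 0.298 to 0.388 and the same numbers of calls in all 6 fits. Depth limits the genes with few counts: 17 of the 44 were not tested, and ITGA8, ITGAX and ITGB8 had no count in any library.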
